A study of Homo sapiens with 17 samples.

Results

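Zinc finger genes named ZNF with a number and located on chromosome 19 made up 237 of the 19222 genes in the read table of the 1 h experiment. They were picked out by symbol (ZNF, a number and at most 1 more letter) and by chromosome. This rule used no measured value, but the family was chosen with earlier results of these data known. The study asked how a low dose of emetine, an alkaloid that blocks the movement of ribosomes along mRNA, changes the synthesis and decay of mRNAs. HEK-293T cells, a line of human embryonic kidney cells, received 500 µM 4-thiouridine (s4U) for 1 h, either alone (untreated, 3 libraries) or together with 1.8 µM emetine (3 libraries), and 1 untreated and 1 emetine-treated library came from cells without s4U. A second experiment lasted 2 h with 250 µM s4U and had 3 libraries for each of no emetine, 1.8 µM and 240 µM emetine. In TimeLapse sequencing (TL-seq), s4U built into RNA made during the treatment is read as C in place of T, so reads with T-to-C conversions are labeled (new) and the others are unlabeled (old). The labels do not say that replicate libraries came from separate cultures, so p-values measure the spread between these libraries, which may be technical.

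C2H2 zinc finger proteins are the most numerous class of DNA-binding proteins in humans. Each finger is a short repeat in which a pair of cysteines and a pair of histidines hold a zinc ion, and arrays of fingers read the sequence of DNA. Many of these proteins carry a KRAB domain, which recruits the corepressor TRIM28 and through it the histone methyltransferase SETDB1, and they are known for silencing transposable elements. Chromosome 19 holds long clusters of such genes that arose by tandem duplication.

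The sequences below show how a finger is written in 4 of these mRNAs, because the finger repeat is what the members share. Each is the first finger unit of the protein that matched a strict pattern and runs, 5′ to 3′ on the coding strand, from a pair of residues before the first cysteine to the end of the linker that joins it to the next finger. The codons of the cysteines and histidines that hold zinc are in capitals. ZNF57, ZNF416 and ZNF564 had levels that rose with emetine, and ZNF358 was a member with a high level and a long half-life whose level did not pass the test.
ZNF57: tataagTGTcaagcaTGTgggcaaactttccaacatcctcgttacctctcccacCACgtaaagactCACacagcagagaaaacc
ZNF416: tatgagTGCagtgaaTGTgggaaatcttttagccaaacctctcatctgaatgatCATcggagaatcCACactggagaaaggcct
ZNF564: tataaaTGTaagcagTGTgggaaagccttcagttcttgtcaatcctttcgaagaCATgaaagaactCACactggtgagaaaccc
ZNF358: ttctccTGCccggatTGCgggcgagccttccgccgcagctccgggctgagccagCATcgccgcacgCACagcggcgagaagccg
All 4 units are 84 bases of the last exon in GRCh38 (the build that hg38 names): chr19:2917207-2917290 on the plus strand in exon 4 of 4 of ZNF57, chr19:57573013-57573096 on the minus strand in exon 4 of 4 of ZNF416, chr19:12527604-12527687 on the minus strand in exon 4 of 4 of ZNF564, and chr19:7519693-7519776 on the plus strand in exon 2 of 2 of ZNF358. Of the 4 zinc-holding codons, 2 ended in T in ZNF57, 2 in ZNF416, 3 in ZNF564 and 1 in ZNF358. Over whole coding sequences, 52.6% of codons ended in A or T in ZNF57, 53.9% in ZNF416, 68.9% in ZNF564 and 24.5% in ZNF358.

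The 6 libraries with s4U held between 22246279 and 40018063 reads given to a gene, and the libraries without s4U held 23905660 (untreated) and 31314746 (emetine). The markers of this cell line VIM, NEFL, NEFM and LIN28B were at 52.3 reads per 1000000 (CPM) or more in each library with s4U. PAX2 was at 1.23 to 2.43 CPM, the blood and lymphocyte genes PTPRC, HBB and CD3E had no reads, ALB reached 0.359 CPM, and the fibroblast gene COL1A1 was present at 19.3 to 28.1 CPM. Emetine replicate 3 differed most from its group: its log2 levels deviated from the emetine mean with an SD of 0.258 over genes (0.135 and 0.155 in replicates 1 and 2), and these deviations rose with transcript length (Spearman's rho 0.764 over genes). Counts are therefore also given without that library. Because libraries are scaled to their own total, more RNA of a gene in each cell and less RNA of other genes cannot be told apart.

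Of the 237 genes, 231 are annotated as protein-coding, with 1 to 36 fingers (median 12) by the pattern of cysteines and histidines. The number of reads limited what could be tested: 190 members had more than 100 reads over the 6 libraries with s4U and were tested for level, and 102 reached 100 reads in every library and were tested for labeling. The other 47 had 100 reads or fewer, and 5 of these (ZNF98, ZNF208, ZNF415, ZNF676 and ZNF677) had none. Members were expressed at low levels. Among those tested for level the median was 5.03 CPM in untreated cells, against 25.7 CPM over all 13776 genes tested, and per kilobase of transcript it was 1.16 against 7.12 CPM.

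Reads of these genes took a larger share of each emetine library than of each untreated library. The share of gene reads was 0.180%, 0.178% and 0.174% in the untreated libraries (in replicate order, as in all such lists here) and 0.255%, 0.245% and 0.295% in the emetine libraries (0.177% ± 0.00296 and 0.265% ± 0.0262, SD, n = 3 each). In the libraries without s4U it was 0.207% (untreated) and 0.278% (emetine). All emetine libraries lay above all untreated libraries, with and without s4U, and emetine replicate 3 was the highest.

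The conversion rate of the same reads moved the other way. Of the T positions in member reads, 3.55%, 4.04% and 4.22% were read as C in the untreated libraries and 2.77%, 2.79% and 2.79% in the emetine libraries, against 0.0387% and 0.0478% in the libraries without s4U. Over all gene reads the rate was between 0.802% and 1.06% in the 6 libraries, with the 2 groups overlapping. Member reads were thus converted more often than the average gene read in each library with s4U, and less often with emetine than without it.

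**Figure D1:**
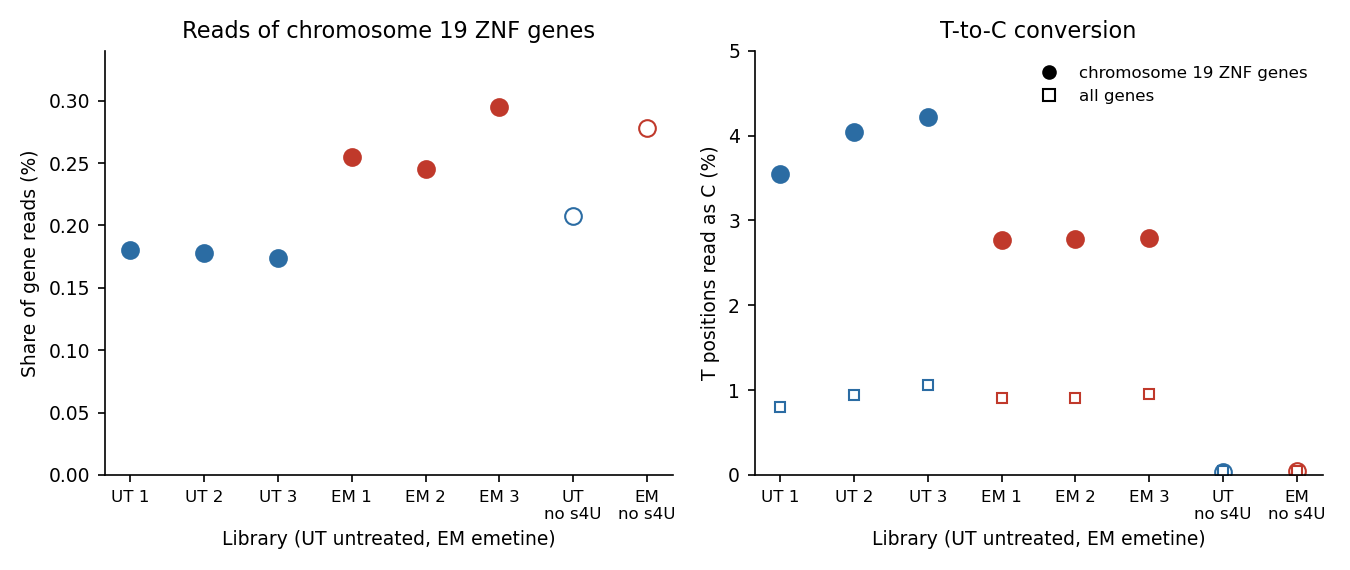
Left, share of gene reads (%) that came from the 237 ZNF genes of chromosome 19 in each of the 8 libraries of the 1 h experiment; right, percent of T positions read as C in these reads (circles) and in all gene reads (squares). Blue points are untreated libraries, red points emetine libraries, and open circles libraries without s4U. The emetine libraries sit at 0.245% to 0.295% of reads and the untreated ones with s4U at 0.174% to 0.180%, and conversion in member reads falls from 3.55% or more to 2.79% or less.

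To find which members changed in level, read counts of both groups were compared by edgeR's quasi-likelihood test, with p-values adjusted over all 13776 genes by the Benjamini-Hochberg method. The level rose for 53 of the 190 members tested, against 2.64% of all genes tested, and it fell for 0 members, against 0.0436% of all genes. At an unadjusted p under 0.05, 135 members were higher and 1 was lower, against 14.9% and 6.95% of all genes. DESeq2 called 99 higher and 0 lower, against 5.95% and 1.13% of all genes. With spike-in scaling, 8 members were called higher and 0 lower, against 0.436% and 0% of all genes, and 149 and 0 had an unadjusted p under 0.05 by edgeR. The median log2 fold change of the members was 0.64 and that of all genes 0.03. A positive fold change was found for 177 of the 190 members, against 7443 of all 13776 genes. The lowest emetine library exceeded the highest untreated one for 138 of the 190 members, against 19.5% of all genes, and the reverse held for 1 member, against 15.2% of all genes. Without emetine replicate 3, 109 members were called higher and 1 lower, where 9.91% and 3.83% of all genes were called. Without untreated replicate 1 or 2 no member passed edgeR's test (120 at an unadjusted p under 0.05 in each case), where 0.036% of all genes were called higher. Only 1 member passed without untreated replicate 3 (0.138% of all genes). There were 25 and 35 without emetine replicates 1 and 2 (1.04% and 1.78% of all genes).

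ZNF57, with a KRAB domain and 13 fingers, had the smallest p-value among members that rose. Its level was 7.31, 7.22 and 7.98 CPM in the untreated libraries and 18.2, 16.3 and 15.6 CPM in the emetine libraries, a log2 fold change of 1.16 (SE 0.12, edgeR adjusted p = 0.00549). All 3 emetine libraries were far above all untreated ones. ZNF574, which has 18 fingers and no KRAB pattern, was at 39.5, 43.4 and 39.0 CPM in untreated and 70, 69.2 and 79.6 CPM in emetine libraries (log2 fold change 0.84, SE 0.10, edgeR adjusted p = 0.00678). ZNF561, a KRAB gene with 8 fingers, went from 24.9, 27.6 and 27.6 CPM to 46.0, 44.2 and 48.0 CPM (log2 fold change 0.78, SE 0.09, edgeR adjusted p = 0.0078). In both genes the groups were separate and the replicates lay close together.

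The largest fold changes among the members named here were in weakly expressed KRAB genes. ZNF564 was at 2.83, 3.44 and 3.49 CPM in untreated and 8.02, 7.61 and 9.38 CPM in emetine libraries, a log2 fold change of 1.36 (SE 0.16, edgeR adjusted p = 0.00847). ZNF550 was at 6.10, 5.30 and 6.61 CPM and at 13.6, 13.6 and 17.5 CPM (log2 fold change 1.31, SE 0.16, edgeR adjusted p = 0.00789). Groups did not overlap for either gene, but ZNF564 had only 74 reads in its shallowest library and was not tested for labeling.

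ZNF416, ZNF526 and ZNF555 rose as well. ZNF416, a KRAB gene with 11 fingers, went from 5.84, 5.90 and 5.19 CPM to 10.8, 11.3 and 11.4 CPM, a log2 fold change of 0.98 (SE 0.13, edgeR adjusted p = 0.0104). With spike-in scaling, the edgeR adjusted p stayed under 0.05 for ZNF57 (0.0473), ZNF564 (0.027) and ZNF550 (0.026) and was higher for ZNF416 (0.0901), ZNF526 (0.0798), ZNF555 (0.074), ZNF574 (0.0981) and ZNF561 (0.116). ZNF296 (log2 fold change 0.61, SE 0.16), ZNF552 (0.47, SE 0.12) and ZNF581 (0.35, SE 0.14) did not pass the test, with edgeR adjusted p-values of 0.0937 to 0.203.

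Only 13 of the 190 members had a negative fold change, and none of them passed the test with all libraries. The 5 with the smallest p-values were ZNF358 (log2 fold change -0.34, SE 0.13), ZNF580 (-0.25, SE 0.18), ZNF414 (-0.19, SE 0.14), ZNF428 (-0.17, SE 0.16) and ZNF524 (-0.15, SE 0.17), with edgeR adjusted p-values of 0.193 to 0.606. ZNF358 was at 87.4, 84.4 and 89.6 CPM in untreated and 75.4, 76.0 and 54.4 CPM in emetine libraries. Its groups did not overlap, and emetine replicate 3 was the lowest. Without that library ZNF358 passed as lower (log2 fold change -0.20, edgeR adjusted p = 0.0383). Scaled by spike-in reads, which raises the median of all genes to 0.71, the fold changes of these 5 were positive, at 0.33 to 0.56. All 5 have no KRAB pattern and 1 to 9 fingers, and between 11.6% and 36.2% of their codons end in A or T. ZNF526 and ZNF574, which rose, also lack the pattern and have a median of 32.3% such codons, but a median of 15.5 fingers. Among members tested for labeling, 11 of the 34 with the lowest share of such codons rose in level. The middle and highest 34 had 11 and 10. Negative fold changes numbered 9, 1 and 0 in the lowest, middle and highest 34. They also numbered 9, 1 and 0 in the 34 members with the fewest, a middle number and the most fingers. Of all members tested for level, 9 of 63 without the KRAB pattern and 4 of 125 with it had a negative fold change. These differences were not tested.

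The fraction new, the share of a gene's reads that come from RNA made during the 1 h with s4U, was estimated for each gene and library from the numbers of T positions and conversions in its reads. Its logit (the log of the ratio of new to old reads) was compared with limma over the 10763 genes that reached 100 reads in every library. The fraction new fell for 51 of the 102 members tested, against 4.83% of all genes tested, and it rose for 0 members, against 0.214% of all genes. In limma at an unadjusted p under 0.05, 80 members were lower and 0 were higher, against 15.4% and 1.15% of all genes. A negative difference was found for 99 of the 102 members, against 8132 of all 10763 genes. The median difference in logit was -0.73 for the members and -0.16 for all genes. The groups were fully apart in this direction for 74 of the 102 members, against 16.8% of all genes.

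The median fraction new of the 102 members was 39.1%, 49.3% and 54.0% in untreated cells and 29.6%, 31.2% and 31.0% under emetine. Over all genes these medians were 9.26%, 12.3% and 14.7%, and 10.7%, 11% and 10.3%. The untreated libraries thus differed among themselves, with replicate 1 the lowest, both for the members and for all genes. The number of members called lower moved with them: it was 90 without untreated replicate 1, where 23.5% of all genes were called lower. It was 31 without untreated replicate 2 (1.728% of all genes) and 21 without untreated replicate 3 (0.873%). Without emetine replicates 1, 2 and 3 it was 31, 34 and 28 (1.552%, 1.802% and 1.905% of all genes).

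**Figure D2:**
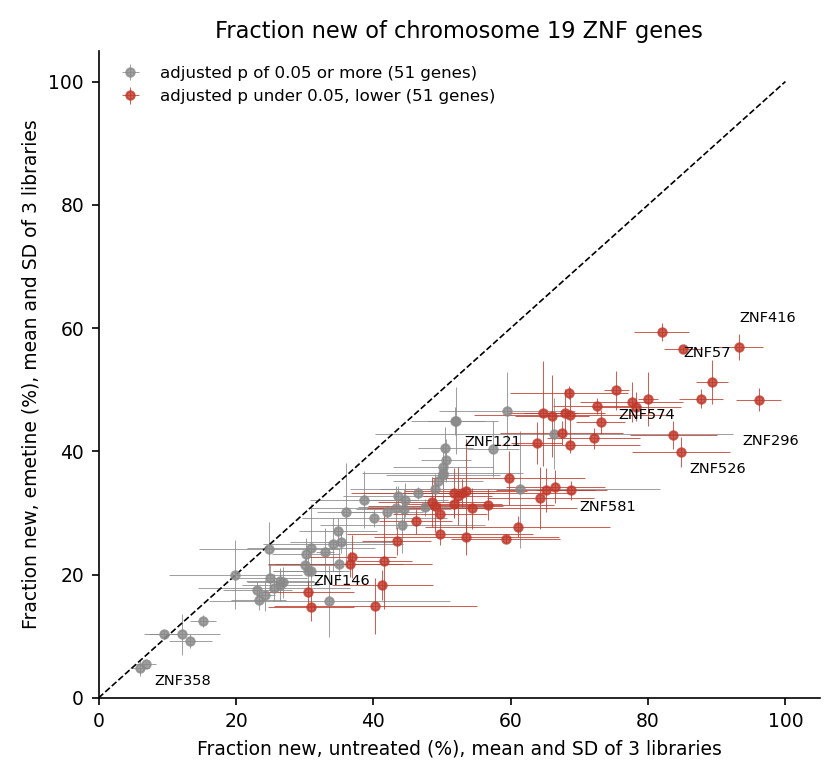
Fraction new (%) of the 102 ZNF genes of chromosome 19 tested for labeling, in untreated cells (horizontal axis) and with emetine (vertical axis), as mean and SD of 3 libraries, with the line of equal values dashed. Red points are the 51 genes with a lower fraction new by limma; genes above 80% in untreated cells sit between 39.9% and 59.3% with emetine, and genes below 20% lie near the line.

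ZNF416 had the smallest p-value. Its fraction new was 89.3%, 95% and 95.5% in the untreated libraries and 55.0%, 59.2% and 56.7% in the emetine libraries, a logit difference of -2.43 (SE 0.28, limma adjusted p = 1.33e-09). Nearly all of its reads were thus new in untreated cells, and just over 1 in 2 with emetine. For ZNF57 the values were 91.5%, 89.7% and 86.8% and then 47.2%, 54.0% and 52.6% (logit difference -2.09, SE 0.26, limma adjusted p = 2.49e-08).

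ZNF526 and ZNF574 are neighbors without a KRAB pattern, and both fell. ZNF526 went from 77.2%, 85.8% and 91.4% to 42.4%, 39.9% and 37.5% (logit difference -2.20, SE 0.26, limma adjusted p = 5.05e-09). ZNF574 went from 84.2%, 90.5% and 88.5% to 47.2%, 48.2% and 50.3% (logit difference -2.05, SE 0.26, limma adjusted p = 2.73e-08). The groups were far apart in both, and the emetine libraries lay closer together than the untreated ones. ZNF555, a KRAB gene next to ZNF57, was at 76.4%, 87.6% and 87.1% and at 40.1%, 44.2% and 43.7% (logit difference -1.98, SE 0.26, limma adjusted p = 5.24e-08).

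A count that uses no model is given for ZNF57, ZNF574 and ZNF358 as examples. Its order over all members was not compared with that of the fraction new. The share of ZNF57 reads with 2 or more conversions was 76.0%, 76.2% and 65.7% in untreated and 37.1%, 43.7% and 36.6% in emetine libraries. For ZNF574 it was 65.0%, 72.5% and 64.4%, and 31.9%, 36.1% and 34.3%. For ZNF358, at the other end, it was 3.78%, 6.01% and 4.32%, and 3.03%, 4.24% and 3.38%, so these groups overlapped.

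Members with a lower fraction new did not all have a higher level. Both calls held for 25 members, against 1.37% of all genes tested for labeling, while 26 members had a lower fraction new and no call for level. ZNF581, with 4 fingers, was one of the latter. Its fraction new was 63.0%, 70.7% and 72.8% in untreated and 32.3%, 33.5% and 35.2% in emetine libraries (logit difference -1.48, SE 0.24, limma adjusted p = 9.63e-06), while its levels of 43.4, 44.9 and 48.8 CPM and of 61.0, 67.8 and 45.9 CPM overlapped. ZNF552 (limma adjusted p = 9.22e-06) and ZNF296 (limma adjusted p = 0.0135) likewise had lower fractions new without a call for level. ZNF71, known as a gene induced by tumor necrosis factor in endothelial cells, went from 25.8%, 29.1% and 37.9% to 15.4%, 16.8% and 12.3% (logit difference -0.94, SE 0.21, limma adjusted p = 0.00242) at a log2 fold change of level of 0.19 (SE 0.14, edgeR adjusted p = 0.404).

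Only 3 members had a positive logit difference, none of which passed the test: ZNF414 (0.10, SE 0.21), ZNF524 (0.07, SE 0.30) and ZNF738 (0.02, SE 0.23). ZNF738 is a KRAB gene with 5 fingers, at 11.7, 11.5 and 11.9 CPM in untreated and 12.4, 12.1 and 12.3 CPM in emetine libraries. Its fraction new was 13.9%, 26.4% and 34.2% in untreated and 20.9%, 22.7% and 29.0% in emetine libraries, so the groups overlapped.

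**Figure D3:**
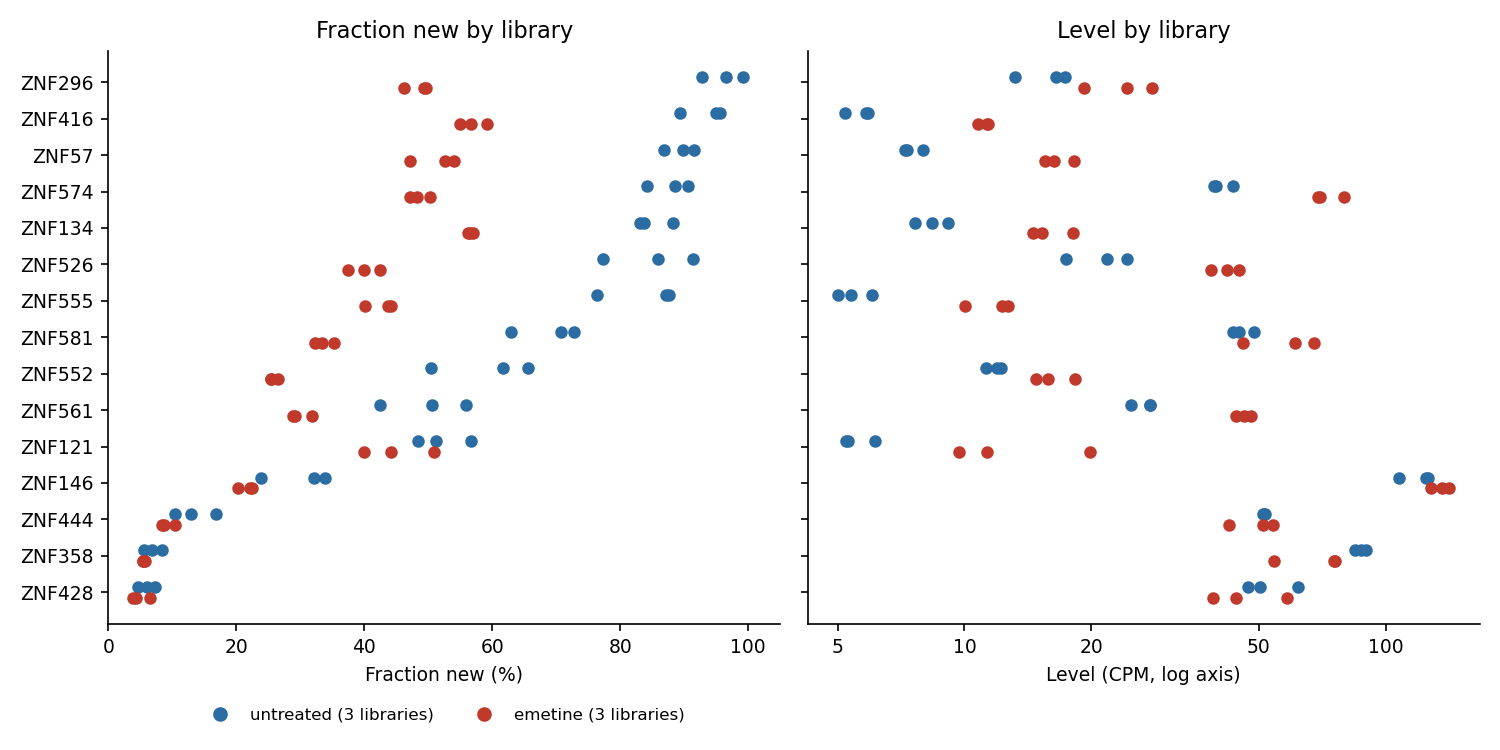
Fraction new (left, %) and level (right, CPM, log axis) of 15 ZNF genes of chromosome 19 in each of the 3 untreated (blue) and 3 emetine (red) libraries, 1 point per library, ordered from short to long half-life for the most part. The groups are apart for the genes at the top in both panels, while ZNF444, ZNF358 and ZNF428 at the bottom have a fraction new below 17% in every library.

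Half-lives in untreated cells were derived from the fraction new assuming steady state and that s4U entered RNA throughout the hour. The median over the 102 members was 63.4 min, against 339 min over all 10763 genes, and 45.1% of the members were under 60 min, against 4.62% of all genes. Single libraries gave medians of 83.8, 61.2 and 53.5 min. The order of the members was similar in the 3 libraries (Spearman's rho 0.905 to 0.936 over 102 genes between pairs of libraries). Half-lives spanned 12.3 to 703 min, with 10% of the members under 28.2 min and 10% over 159 min. Members with at least 500 reads in each library, 15 in number, had a longer median of 118 min.

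The shortest half-lives were those of ZNF296, ZNF416, ZNF57, ZNF574 and ZNF134. ZNF296, a gene linked to pluripotency with 6 fingers, gave 15.9, 8.56 and 12.5 min in the 3 untreated libraries (12.3 ± 3.66 min, SD, n = 3). ZNF416 gave 18.6, 13.9 and 13.4 min (15.3 ± 2.87), ZNF57 16.9, 18.3 and 20.5 min (18.6 ± 1.84), ZNF574 22.5, 17.6 and 19.2 min (19.8 ± 2.49) and ZNF134 19.5, 23.4 and 22.9 min (21.9 ± 2.14). Neighbors in this order overlapped between libraries, while all libraries of ZNF296 lay below all those of ZNF57, ZNF574 and ZNF134, and all those of ZNF416 below all those of ZNF134. A half-life this short rests on the few unlabeled reads that remain after 1 h: for ZNF296 these were 1.20, 0.103 and 0.614 CPM.

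The longest were those of ZNF444 (302 ± 75.1 min), ZNF331 (396 ± 248 min), ZNF414 (432 ± 116 min), ZNF358 (594 ± 129 min) and ZNF428 (703 ± 168 min). ZNF331 is an imprinted KRAB gene, and ZNF444 carries a SCAN domain, through which such proteins pair with one another. The SD of ZNF331 covers more than the distance to its neighbors in this order, and of the 5 only ZNF444 had all libraries below all those of ZNF358 and ZNF428.

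The most abundant members had half-lives above the members' median. In CPM the 5 highest in untreated cells were ZNF146 (119), ZNF358 (87.1), ZNF580 (68.5), ZNF428 (53.2) and ZNF444 (51.4), and per kilobase of transcript they stood at 35.7, 44.3, 59.3, 45.8 and 26.5 CPM. ZNF146, a protein that consists almost only of fingers, was at 125, 126 and 107 CPM in untreated and 136, 128 and 142 CPM in emetine libraries (log2 fold change 0.18, SE 0.10, edgeR adjusted p = 0.287), and its half-life was 120 ± 28.1 min. None of the 5 passed the test for level, fraction new, unlabeled or labeled reads. Over the 102 members Spearman's rho between half-life and untreated CPM was 0.322, with both taken from the same libraries.

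To see which reads made up the changes, the level of each gene was divided into labeled and unlabeled CPM and each was compared with limma on the scale of log2(CPM + 0.5), which understates the change of weakly expressed genes. Unlabeled reads rose for 65 of the 102 members, against 7.3% of all genes, and fell for 0, against 0.0929% of all genes. Labeled reads rose for 0 members, against 0.26% of all genes, and fell for 0, against 0.632% of all genes. In limma at an unadjusted p under 0.05, 84 members were higher and 1 was lower in unlabeled reads, against 19.4% and 7.06% of all genes. For labeled reads 2 were higher and 9 lower, against 1.64% and 10.6% of all genes, so these shares were near those of all genes. The median log2 change was 0.91 for unlabeled and -0.05 for labeled reads of the members, against 0.04 and -0.14 over all genes. Without emetine replicate 3, unlabeled reads rose for 79 members (13.4% of all genes) and labeled reads for none. Unlabeled reads rose for 39 members without untreated replicate 2 (2.69% of all genes) and for 38 without untreated replicate 3 (2.52%). Labeled reads rose for 1 member and fell for 10 without untreated replicate 1 (0.595% and 16.1% of all genes), and rose for 1 without untreated replicate 3 (0.334%).

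In sum over the 102 members, unlabeled reads came to 1063, 933 and 866 CPM in untreated and 1521, 1476 and 1565 CPM in emetine libraries, whereas labeled reads came to 563, 697 and 748 CPM and to 603, 619 and 672 CPM. The groups were apart for unlabeled reads and overlapped for labeled reads. Every emetine library was above every untreated library for 87 of the 102 members in unlabeled reads, against 23.9% of all genes. In labeled reads this held for 7 members, against 3.31% of all genes, and the opposite for 12, against 11.3%. The median SE of a labeled-read change was 0.26 on the log2 scale, and 88 of the 102 members had an estimate with 2 SE either side within 1 log2 unit of 0. Scaled by spike-in reads, the median change of labeled reads was 0.52 for the members and 0.41 for all genes, with 0 members called by limma (6 higher and 0 lower at an unadjusted p under 0.05).

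ZNF574, among the best-covered of the short-lived members, had 6.23, 4.11 and 4.49 unlabeled CPM in untreated and 37.0, 35.8 and 39.5 in emetine libraries (log2 change 2.82, SE 0.16, limma adjusted p = 0.000333). Its labeled reads were 33.3, 39.3 and 34.5 CPM and then 33.0, 33.4 and 40.0 CPM (log2 change -0.01, SE 0.22, limma adjusted p = 0.99). The groups were separate in the first and interleaved in the second. ZNF57 had 0.625, 0.740 and 1.05 unlabeled CPM and then 9.63, 7.51 and 7.38 (log2 change 2.73, SE 0.19, limma adjusted p = 0.00035), with labeled reads at a log2 change of 0.33 (SE 0.25, limma adjusted p = 0.657).

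No member passed the test for labeled reads with all libraries, and those nearest to it differed in direction. Without untreated replicate 1, ZNF121 passed as higher (limma adjusted p = 0.0161), and ZNF581, ZNF552 and ZNF71 passed as lower (limma adjusted p = 0.0051, 0.0109 and 0.0165). ZNF121 also passed without untreated replicate 3 (limma adjusted p = 0.0401). ZNF121 had 2.53, 3.0 and 3.14 labeled CPM in untreated and 4.94, 4.98 and 7.94 in emetine libraries (log2 change 0.90, SE 0.26, limma adjusted p = 0.0628), and its unlabeled reads rose as well (log2 change 1.28, SE 0.29, limma adjusted p = 0.0302). Its level of 5.23, 5.30 and 6.14 CPM went to 9.71, 11.3 and 19.9 CPM (edgeR adjusted p = 0.0391) with a fraction new that did not pass the test (limma adjusted p = 0.628), and emetine replicate 3 was the highest in all of these. ZNF543 and ZNF550 followed, with log2 changes of labeled reads of 0.56 (SE 0.25) and 0.51 (SE 0.26). ZNF581, ZNF552 and ZNF71 lay on the other side, at -0.68 (SE 0.22), -0.67 (SE 0.26) and -0.70 (SE 0.27), with limma adjusted p-values of 0.112 to 0.228. For ZNF581 the labeled reads were 27.3, 31.8 and 35.5 CPM and then 19.7, 22.7 and 16.2 CPM, which did not overlap.

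**Figure D4:**
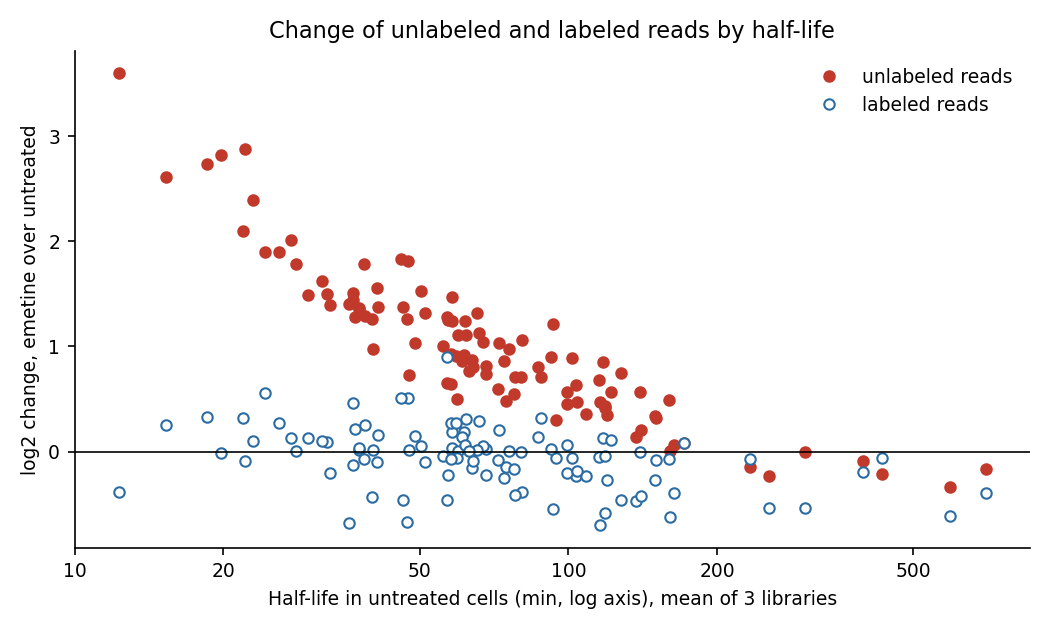
Change of unlabeled reads (filled red) and labeled reads (open blue) of the 102 ZNF genes of chromosome 19 against their half-life in untreated cells (min, log axis); the vertical axis is the log2 change of CPM + 0.5, emetine over untreated, 3 libraries each. Unlabeled reads range from 3.60 for the shortest-lived gene to -0.34, while labeled reads stay between -0.70 and 0.90.

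The members with the shortest half-lives in untreated cells had the largest gains in unlabeled reads. With the 102 members divided by half-life into 3 equal groups of 34, the median log2 change of unlabeled reads was 1.52 for 12.3 to 50.3 min, 0.91 for 51.2 to 86.7 min and 0.39 for 88.2 to 703 min, and 34, 26 and 5 members were called higher. The median log2 change of labeled reads was 0.07, 0.00 and -0.20. These measures share the untreated libraries, in which a short half-life means few unlabeled reads. Unlabeled RNA cannot exceed the amount present at the start, so a longer half-life leaves less room for a gain within 1 h. The order of the 3 groups is thus in part set by the labeling time, and the comparisons below do not remove this limit. When the half-life was taken from 1 untreated library and the change from the others, Spearman's rho over the 102 members was -0.825, -0.896 and -0.892 for unlabeled and -0.516, -0.419 and -0.395 for labeled reads. In the libraries without s4U, which share no reads with the half-lives, the median log2 ratio of emetine over untreated levels was 0.67, 0.62 and 0.14 in the same 3 groups.

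The 2 libraries without s4U give a level comparison in which no label was present, with 1 library a side and thus no replicate check. Among the 172 members with at least 100 reads in both together, 79 were over 1.5-fold higher in the emetine library, against 4.43% of all genes, and 152 had a ratio above 1. The median log2 ratio was 0.55 for the members and 0.00 for 12392 genes. Of the 53 members with a higher level in the s4U libraries, 52 were higher here too and 37 by over 1.5-fold. ZNF57 had a log2 ratio of 0.94 (95% exact interval 0.73 to 1.16), ZNF416 of 1.32 (1.03 to 1.62), ZNF574 of 0.83 (0.73 to 0.94) and ZNF358 of -0.35 (-0.43 to -0.26). The intervals cover counting error only, as no molecular identifiers are described.

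Along the chromosome the members fell into 16 groups when a new group was started wherever gene starts lay more than 1 Mb apart, and the 7 largest groups held 216 of the 237. Members rose in level in 11 of the 16 groups. The group at 55.5 to 58.5 Mb, next to the end of the long arm, was the largest, with 56 genes. In it 17 of 52 members tested had a higher level and 22 of 36 a lower fraction new, and the median half-life was 49.3 min. The group at 36.2 to 37.8 Mb had 26 genes, of which 6 of 25 had a higher level and 4 of 10 a lower fraction new, with a median half-life of 96.9 min. The pair at 42.1 to 42.2 Mb, ZNF574 and ZNF526, had half-lives of 19.8 and 22.1 min.

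Within a group of neighbors some members were called and others not, and these differences were not themselves tested. In the group of 5 at 2.82 to 2.94 Mb, ZNF57 and ZNF555 rose in level and fell in fraction new, whereas their neighbors ZNF554 and ZNF77, chosen after their values were seen, had log2 fold changes of 0.37 and 0.45 that did not pass the test. All 4 members tested in this group moved the same way at an unadjusted p under 0.05, higher in level (edgeR) and lower in fraction new (limma). In the group at 43.5 to 45.1 Mb, ZNF296 had the shortest and ZNF428 the longest half-life of all members tested. ZNF580 and ZNF581 overlap by 8012 bases on the same strand. The fraction new in untreated cells was 15.2% ± 1.86 for ZNF580 and 68.8% ± 5.15 for ZNF581 (SD, n = 3 each), and how reads of the shared part were divided between them is not known.

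**Figure D5:**
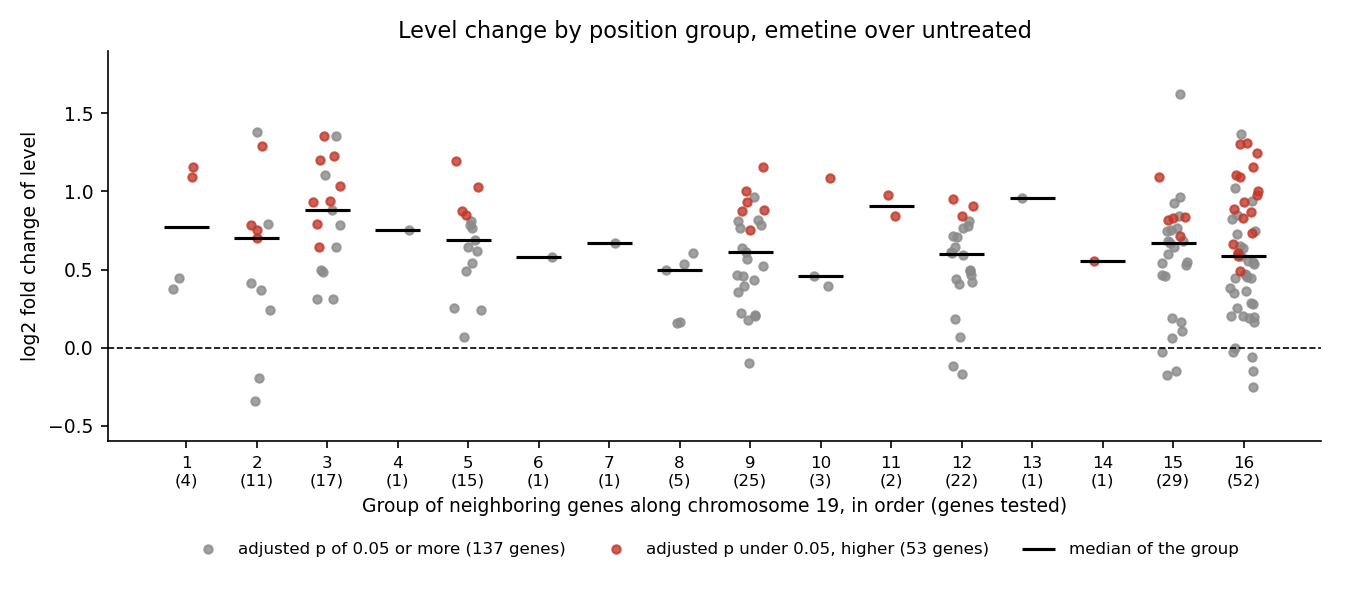
log2 fold change of level (emetine over untreated) of the 190 ZNF genes of chromosome 19 tested, by group of neighboring genes in order along the chromosome, with the number tested in parentheses; red points passed edgeR's test, and bars are group medians. The medians of all 16 groups lie between 0.46 and 0.96, and points called higher occur in 11 groups.

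Many members are close relatives in sequence, and reads of near-identical members may have been split between them. Of the 222 members with a protein match over at least 70% of their length, the median identity to the nearest member was 64.4%, and 10 members were at 90% or more, 7 of them tested for labeling. Genomic overlap touched 49 members in 26 pairs, 9 of these on the same strand, and values of near-identical and overlapping genes are uncertain. Of the members with a higher level, 9 of the 53 overlapped another member.

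A strict pattern for the A box of the KRAB domain was found in 162 of the 231 members with a coding sequence. The level rose for 40 of the 125 of these that were tested and for 13 of 63 without the pattern, with median log2 fold changes of 0.73 and 0.47. The fraction new fell for 36 of 62 and for 15 of 40, and the median half-life was 58.7 and 75.3 min. The pattern missed members whose A box lacks its first tryptophan, which was most of the group at 43.5 to 45.1 Mb (2 of 24 found). With a wider pattern, chosen after these values were seen, 179 members were counted as KRAB genes (19 of 24 in that group), and the level rose for 42 of 141 with and 11 of 47 without it, while the fraction new fell for 40 of 67 and for 11 of 35. The gap in the share of members called was thus narrower for level and wider for fraction new than under the strict pattern. The median log2 fold changes of level were 0.71 with and 0.45 without the wider pattern. No difference between the classes was tested. A SCAN pattern was found in 3 members, ZNF274, ZNF444 and ZNF446, of which ZNF274 rose in level (log2 fold change 0.58, edgeR adjusted p = 0.0371). ZNF274 is known for binding to the ends of other zinc finger genes together with SETDB1.

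The codons of the members ended in A or T more often than those of other genes: the median share was 61.7%, against 39.0% over all genes with a coding sequence. Of their cysteine codons 82.8% were TGT, against 45.0%, and cysteine and histidine made up 12.9% of residues, against 4.47%. Within the 102 members Spearman's rho of the share of codons ending in A or T was 0.011 with half-life and 0.027 with the logit difference of the fraction new. Its rho with the log2 fold change of level was 0.272 and with that of labeled reads 0.289. The 34 members with the lowest share (7.07% to 50.8%) had 15 with a lower fraction new, the middle 34 had 20, and the 34 with the highest share (61.4% to 69.5%) had 16. Transcript length moved with the change of labeled reads as well (rho 0.405), as did the deviation of emetine replicate 3, and its part in these values was not tested. The number of fingers had a rho of -0.175 with half-life, and the groups with the fewest (1 to 9), a middle number (9 to 13) and the most fingers (13 to 29) had 13, 20 and 18 members with a lower fraction new among 34 each.

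Of a list of 28 genes for TRIM28, SETDB1, the HP1 proteins, the NuRD and HUSH complexes, ATRX, DAXX, DNA methylation and SUMO, 0 passed the test in either direction for level by edgeR, or for fraction new, unlabeled or labeled reads by limma. The shares over all genes, 2.64% for a higher level, 4.83% for a lower fraction new and 7.3% for more unlabeled reads, would amount to few of 28 genes, so these counts do not set the list apart. At an unadjusted p under 0.05, 5 were higher and 1 lower in level, against 14.9% and 6.95% of all genes. At the same threshold 1 was lower in fraction new (15.4% of all genes) and 2 were lower in labeled reads (10.6%). In unlabeled reads 5 were higher and 1 lower (19.4% and 7.06%). The median log2 fold change of level was -0.02. All 28 had a half-life over 60 min, with a median of 513 min, and only 4.62% of all genes were under 60 min. TRIM28 was at 1301 ± 63.7 CPM in untreated and 1117 ± 133 CPM in emetine libraries (log2 fold change -0.22, SE 0.12, edgeR adjusted p = 0.292). SETDB1 was at 70.9 ± 1.03 and 83.2 ± 3.43 CPM (log2 fold change 0.23, SE 0.08, edgeR adjusted p = 0.17; SD, n = 3).

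ZNF genes on other chromosomes, 256 in number, were called in the same directions. Their level rose for 36 of 232 tested and fell for 0, and their fraction new fell for 59 of 180 and rose for 0, against 2.64% of all genes with a higher level and 4.83% with a lower fraction new. At an unadjusted p under 0.05, edgeR had 3 of them lower in level and limma had 1 with a higher fraction new. Their median log2 fold change of level was 0.42, their median half-life 108 min, and a median of 53% of their codons ended in A or T. These values lie between those of the chromosome 19 members and those of all genes, and the difference between the 2 ZNF sets was not tested. They share all libraries.

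In the tables of the 2 h experiment, 128 of the members were among 9982 genes, which included 41 of the 53 with a higher level and 88 of the 102 tested for labeling at 1 h. Only the authors' mean of normalized counts over all 2 h libraries, which does not separate the treatments, was used from them. It ranged from 143 to 4197 for the members, with a median of 357 against 845 over all genes listed, and 15 of the 128 lay above that median. ZNF146 was at 3745, ZNF543 at 1152, ZNF561 at 1113 and ZNF57 at 422, and ZNF564 at 338, while ZNF416 and ZNF296 were not among these genes.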

How the data were processed

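The 1 h table holds counts: per the methods of the study, the authors trimmed adapters with cutadapt, aligned reads to hg38 with hisat-3n and tallied T positions and T-to-C conversions per read with bam2bakR. The deposited counts are not normalized, and 81.1% to 82.3% of the reads of a library were given to 1 gene. Spike-in reads were 0.304% to 0.728%. A further 1257 ambiguous reads named 7 of the members and were left out. For the 2 h tables, the authors deposited a signal, the mean of counts divided by spike-in size factors over all 2 h libraries, which was used as deposited. Their other columns hold log2 fold changes, errors, test statistics and p-values of the authors' comparisons and were not used, nor was the table of spike-in size factors.

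Levels were tested with edgeR 4.0.16 (R 4.3.3, TMM, quasi-likelihood) where a gene had over 100 reads in total. The fraction new was the weight of a 2-component binomial mixture fitted by maximum likelihood in Python 3.11.15, with a background rate from the library without s4U (0.0504% untreated, 0.0521% emetine) and a conversion rate of new reads of 8.49% to 9.53% by library. Its logit, bounded at 0.001 and 0.999, and the log2 of labeled and unlabeled CPM + 0.5 were tested with limma 3.58.1 (trend, robust). The edgeR and limma steps were tested on simulated data. All p-values were adjusted over all genes tested. With a labeling time of 1 h, the half-life is minus the time multiplied by ln(2) over ln(1 - fraction new). The study used bakR, which was not run here. The smallest p of an exact permutation over 3 and 3 libraries is 0.1, so none is reported.

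Gene symbols were matched to GENCODE 44 (236 members by symbol and 1 by an older symbol), from which coding sequences and finger units were read. Members and lists were chosen with earlier results of these data known. Genes named are ZNF57 and ZNF416, which the text of the study names, up to 5 per direction with the lowest p for level and for fraction new (3 for labeled reads), the 5 shortest and longest half-lives and the 5 highest levels; others are marked. The rule as first written also took names from pictures of the study's figures, which were not meant to be a source, so that list was dropped and 4 members that it alone named are not described. Alternatives covered normalization (DESeq2 1.42.0 size factors, spike-ins), count filters, DESeq2's Wald test, a length and GC trend (mgcv 1.9.3), rates, weights, added CPM, a replicate block and leaving out each library. Scaling by spike-in reads moved the median log2 fold change of all genes to 0.71 and that of the members to 1.32.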

Additional observations from a re-analysis of the deposited data

How the results depend on the processing

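Replicates and depth set the limits here: 3 libraries a group, few reads per member, and no fraction new for 88 of the 190 members tested for level. The median half-life was 118 min for the 15 members with at least 500 reads in each library. The cause of each shift below was not tested. The number of members with a higher level was 8 with spike-in scaling (0.436% of all genes) and 34 of 102 with at least 100 reads in each library (2.79%). It was 99 by DESeq2's Wald test (5.95%) and 82 with a length and GC trend removed (5.53%, with 4.51% of all genes lower). At 500 reads per library, 5 of 15 members had a lower fraction new (3.22% of all genes) and 5 of 15 more unlabeled reads (3.19%).

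Leaving out each library in turn, edgeR called 0 to 109 members higher in level (0.036% to 9.91% of all genes) and 0 to 1 lower (0% to 3.83%). In limma the count was 21 to 90 for a lower fraction new (0.873% to 23.5% of all genes) and 38 to 79 for more unlabeled reads (2.52% to 13.4%). It was 0 to 1 for more labeled reads and 0 to 10 for fewer labeled reads. The 10 were found without untreated replicate 1, where 16.1% of all genes were called. Without untreated replicate 1 or 2, edgeR called 0 members and 0.036% of all genes higher, and 120 members had an unadjusted p under 0.05 in each case.

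Same-numbered libraries did not deviate together (r over genes 0.07, -0.015 and -0.18 for levels). Deviations from a mean of 3 libraries are not independent, so these values cannot show whether the numbers pair the samples. With a replicate block, 10 members had a higher level, 56 a lower fraction new and 43 more unlabeled reads, against 0.544%, 6.01% and 3.25% of all genes.

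Among named genes, 562 comparisons with an alternative kept direction and call, 55 lost a call, 16 gained one and 23 changed sign. With spike-in scaling the log2 fold change of level was 0.57 for ZNF331, 0.33 for ZNF358, 0.52 for ZNF414, 0.56 for ZNF428, 0.62 for ZNF444, 0.54 for ZNF524 and 0.46 for ZNF580. With the length and GC trend removed it was 0.017 for ZNF428, 0.021 for ZNF444, 0.030 for ZNF524 and -0.16 for ZNF738. With weights from read counts the logit difference was -0.056 for ZNF524 and -0.032 for ZNF738. Over the libraries left out, the log2 fold change ran from -0.27 to 0.070 for ZNF331 and from -0.14 to 0.036 for ZNF444, and the logit difference from -0.48 to 0.089 for ZNF331, -0.053 to 0.20 for ZNF414, -0.30 to 0.36 for ZNF524 and -0.31 to 0.28 for ZNF738.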

Other observations

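Near-identical members, chosen after their values were seen, did not always have the same calls. ZNF324 and ZNF324B, whose proteins are 91.1% identical, had log2 fold changes of level of 0.89 (SE 0.11, edgeR adjusted p = 0.00863) and 0.45 (SE 0.18, edgeR adjusted p = 0.206). The fraction new went from 66.5% ± 7.20 to 34.2% ± 2.65 for ZNF324 and from 43.3% ± 12.7 to 30.8% ± 3.49 for ZNF324B (SD, n = 3 each). ZNF417 and ZNF587, at 98.1% identity, had fractions new of 66.1% ± 5.38 and 32.9% ± 1.34 in untreated cells. The difference within a pair was not tested, and how reads that match both genes were assigned is not known.

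ZNF473, named after its values were seen, encodes a protein of histone pre-mRNA processing. It was at 27.1, 29.5 and 28.4 CPM in untreated and 38.4, 39.6 and 46.8 CPM in emetine libraries, a log2 fold change of 0.55 (SE 0.11, edgeR adjusted p = 0.033). Its fraction new of 50.1% ± 7.32 and 37.5% ± 0.259 (SD, n = 3 each) did not pass limma's test (adjusted p = 0.213).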
